A study of Mus musculus with 10 samples.

Results

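The vascular endothelial growth factor (VEGF) family was examined as the 10 genes that the count table names Vegfa, Vegfb, Vegfc, Figf and Pgf (the secreted ligands) and Flt1, Kdr, Flt4, Nrp1 and Nrp2 (their receptors and co-receptors). They were taken by symbol from a table of 20692 genes, all 10 were found, and all 10 had enough counts to be tested among 12001 tested genes. Figf is the older name of Vegfd. The mice were wild type, of the inbred strain FVB/NJ, 9 weeks old and labelled female, and the RNA was taken from the apex of the ventricles per the protocol, though the tissue label reads whole heart. The 10 hearts divide into 5 sham-operated controls and 5 taken 1 week after TAC (transverse aortic constriction), an operation that narrows the aortic arch and raises the pressure against which the left ventricle pumps. The sham titles do not name the operation, so that group rests on the design text of the series. The comparison asks which polyadenylated transcripts of the heart differ after 1 week of pressure overload.

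VEGF ligands are secreted dimers that drive the growth, survival and permeability of blood and lymphatic vessels. Vegfa acts through the receptor tyrosine kinases Kdr, the main signalling receptor of blood endothelium, and Flt1, which binds ligand tightly, signals weakly and also exists as a secreted decoy. Vegfb and Pgf have Flt1 as their only kinase receptor and can also bind neuropilins, Vegfc and Figf bind the lymphatic kinase Flt4 and, once processed, Kdr, and the neuropilins Nrp1 and Nrp2 are co-receptors that bind VEGFs and class 3 semaphorins. In the heart, cardiomyocytes are a major source of Vegfa and Vegfb, and the receptors lie mostly on endothelial cells.

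Nrp2 and Nrp1, the co-receptor pair, and Vegfb are the members on which most of the account below turns, and the 200 bases from 250 to 51 bases before their RefSeq transcription starts are shown for reference (GRCm38.p6, 5′ to 3′ on the strand of the gene). Capitals mark ACGTG or GCGTG, the core letters bound by hypoxia-inducible factors, read on both strands, so that a match on the other strand appears as CACGT or CACGC. The Nrp2 window is at chr1:62703067-62703266 (plus strand), the Nrp1 window at chr8:128358823-128359022 (plus strand) and the Vegfb window at chr19:6987702-6987901 (minus strand). None of these windows overlaps an exon of the GENCODE M21 annotation, though the Nrp1 window lies inside the span of that gene, whose annotated start is at 128358604.
Nrp2: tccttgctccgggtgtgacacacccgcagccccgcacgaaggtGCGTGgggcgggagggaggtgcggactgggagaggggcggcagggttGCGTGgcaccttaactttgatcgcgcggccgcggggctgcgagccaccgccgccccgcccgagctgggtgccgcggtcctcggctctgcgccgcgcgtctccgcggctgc
Nrp1: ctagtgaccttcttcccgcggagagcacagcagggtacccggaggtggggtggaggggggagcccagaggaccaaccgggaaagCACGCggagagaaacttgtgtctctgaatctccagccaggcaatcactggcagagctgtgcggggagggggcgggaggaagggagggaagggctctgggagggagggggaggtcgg
Vegfb: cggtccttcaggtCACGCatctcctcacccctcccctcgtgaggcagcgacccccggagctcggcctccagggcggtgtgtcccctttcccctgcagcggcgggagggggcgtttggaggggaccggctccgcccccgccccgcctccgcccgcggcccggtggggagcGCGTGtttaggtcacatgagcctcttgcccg
The core letters occur 2 times in the Nrp2 window, 1 time in that of Nrp1 and 2 times in that of Vegfb, and 31.6% of the 32851 RefSeq windows of this length hold at least 1. GGGCGG, the GC box, occurs 4 times in the Nrp2 window, 1 time in the Nrp1 window and 4 times in the Vegfb window on either strand, against at least 1 in 24.6% of all windows. These matches are a description of the letters only.

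Each library held between 7410967 and 10126574 counts. Levels are in CPM, counts divided by the size of the library after a correction for its composition by TMM. The library labelled TAC replicate 1 went against its female label, with 14 counts of Xist, the RNA of the inactive X chromosome, against 1042 to 1561 in the other libraries, and 155 counts of the Y-linked gene Ddx3y. Results of the members are also given below without it where leaving it out ends or makes a call or moves a value by over 1.5 times. For ratios this is done where a call changed. List counts that changed without it are given with the list or in the closing section. Cardiomyocyte markers summed to between 113000 and 134600 CPM in sham and between 82560 and 110600 CPM in TAC, which made them abundant in every library. The lowest sum, 82560 CPM, came from the library labelled TAC replicate 1, and the next lowest was 94280 CPM.

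Of the 10 members, 4 rose (Nrp2, Flt4, Nrp1 and Vegfc), 1 fell (Vegfb) and 5 did not pass the test (Vegfa, Figf, Pgf, Flt1 and Kdr). By the same rule, an adjusted p under 0.05 with edgeR, calls of a rise made up 18.8% of all tested genes, calls of a fall 17% and both together 35.8%. These shares also stand beside every count of a gene list below. The median log2 fold change of the members was 0.16, beside 0.00 for all tested genes. In 2 members, Nrp2 and Flt4, every TAC library lay above every sham library, and in 1, Vegfb, every TAC library lay below, where 12.2% and 11.6% of all tested genes did so. Without the library labelled TAC replicate 1, 3 members rose and 1 fell, the difference being Vegfc. In bulk tissue, fewer cells of a type and less RNA per cell cannot be told apart. The sham and TAC libraries were also aligned with different software versions, per the submitters' processing notes, so that the operation and the alignment cannot be told apart in any of these values.

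**Figure D1:**
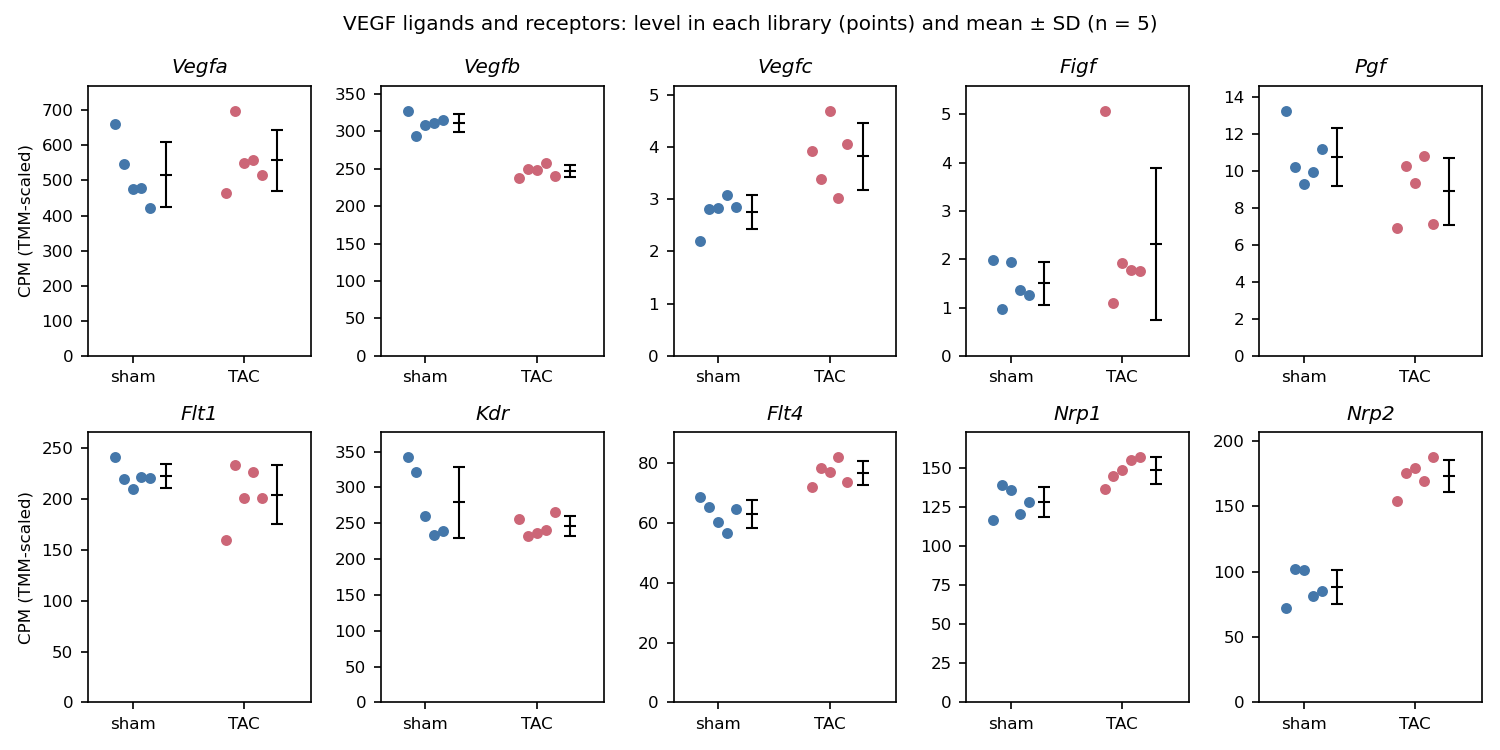
Level of each VEGF ligand and receptor in CPM (vertical axis, starting at 0) in the 5 sham and 5 TAC libraries, with points for libraries in the order of replicate number and bars for the mean ± SD. The TAC libraries of Nrp2 lie between 154 and 188 CPM, all above the sham libraries, and those of Vegfb lie between 238 and 258 CPM, all below them.

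Among the ligands, Vegfb (ENSMUSG00000024962, chromosome 19, 6982473 to 6987651 in GRCm38) fell. This ligand of Flt1 has been linked to coronary vessel growth and to fatty acid handling. It gave 328, 293, 308, 312 and 315 CPM in sham replicates 1 to 5 and 238, 250, 249, 258 and 240 CPM in TAC replicates 1 to 5. The groups did not overlap, and the spread within each was small. The mean went from 311 ± 12.4 to 247 ± 8.09 CPM (SD, n = 5 each), and edgeR gave a log2 fold change of -0.33 ± 0.05 (SE; adjusted p = 0.000274). All 16 alternative settings called it, 10 of them sets that left out a library, with the log2 fold change between -0.36 and -0.23.

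Vegfa (ENSMUSG00000023951, chromosome 17, 46016993 to 46032369), the principal angiogenic ligand, did not pass the test. It gave 661, 547, 475, 478 and 420 CPM in sham replicates 1 to 5 and 465, 699, 551, 559 and 515 CPM in TAC replicates 1 to 5. The highest sham library lay above 4 of the TAC libraries and the groups overlapped widely. The mean was 516 ± 92.5 CPM in sham and 558 ± 87.4 CPM in TAC (SD, n = 5 each). The log2 fold change was 0.11 ± 0.12 (adjusted p = 0.52 by edgeR), with a 95% interval from -0.16 to 0.38. It moved between 0.01 without TAC replicate 2 and 0.21 without sham replicate 1, and was 0.17 without the library labelled TAC replicate 1, with no call in any of these.

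Pgf (ENSMUSG00000004791, chromosome 12), placental growth factor, gave 13.3, 10.2, 9.29, 9.94 and 11.2 CPM in the sham libraries and 6.93, 10.3, 9.39, 10.8 and 7.12 CPM in the TAC libraries, in the order of replicate number. TAC replicates 1 and 5 lay below all sham libraries and the other 3 inside the sham range. The log2 fold change was -0.28 ± 0.15 (95% interval from -0.60 to 0.04, adjusted p = 0.159 by edgeR), so the change did not pass, and it was -0.18 when totals alone scaled the libraries. The counts behind it were 60 to 127 per library.

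The lymphatic ligands were the least abundant members. Vegfc (ENSMUSG00000031520, chromosome 8) gave 21, 23, 22, 27 and 25 counts in the sham libraries and 34, 25, 39, 29 and 37 counts in the TAC libraries. On the CPM scale the sham libraries reached 3.08 and the TAC libraries began at 3.02, so that the groups overlapped by 1 library on each side. The mean went from 2.76 ± 0.331 to 3.82 ± 0.642 CPM (SD, n = 5 each), where edgeR put the log2 fold change at 0.47 ± 0.16 (adjusted p = 0.0398). DESeq2 did not make this call (adjusted p = 0.11), and neither did edgeR without a filter on low counts (adjusted p = 0.0629). It was also lost when sham replicate 1, 2, 3 or 5 or TAC replicate 1, 3 or 5 was left out.

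Figf (ENSMUSG00000031380, X chromosome) had 19, 8, 15, 12 and 11 counts in the sham libraries and 44, 8, 16, 17 and 16 counts in the TAC libraries. The library labelled TAC replicate 1 stood apart, and the other 4 TAC libraries lay inside the sham range of CPM. Figf did not pass (log2 fold change 0.63 ± 0.38, 95% interval from -0.20 to 1.45, adjusted p = 0.224 by edgeR). Without that library the log2 fold change was 0.13 (adjusted p = 0.743 by edgeR).

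Among the kinase receptors, Flt4 (ENSMUSG00000020357, chromosome 11, 49609263 to 49652739) rose. Its product is the receptor of Vegfc and Figf, found on lymphatic and on some blood endothelium. It gave 68.5, 65.3, 60.4, 56.4 and 64.5 CPM in sham replicates 1 to 5 and 71.9, 78.5, 76.9, 82.0 and 73.7 CPM in TAC replicates 1 to 5. The lowest TAC library lay above the highest sham library. The mean went from 63.0 ± 4.67 to 76.6 ± 3.96 CPM (SD, n = 5 each), which edgeR fitted as 0.28 ± 0.06 on the log2 scale (adjusted p = 0.00403), and it was called in all 16 alternative settings.

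Kdr (ENSMUSG00000062960, chromosome 5, 75932827 to 75978458) did not pass. The sham libraries gave 342, 321, 260, 233 and 239 CPM and the TAC libraries 256, 232, 237, 241 and 266 CPM, in the order of replicate number. Sham replicates 1 and 2 lay above all TAC libraries, and the other 3 sham libraries lay among them. The mean was 279 ± 49.6 CPM in sham and 246 ± 14.0 CPM in TAC (SD, n = 5 each; log2 fold change -0.18 ± 0.10, 95% interval from -0.40 to 0.04, adjusted p = 0.188 by edgeR). It was -0.10 without sham replicate 1 and -0.08 when totals alone scaled the libraries.

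Flt1 (ENSMUSG00000029648, chromosome 5, 147561604 to 147726011) gave 241, 220, 210, 221 and 221 CPM in sham and 160, 233, 201, 227 and 202 CPM in TAC. The library labelled TAC replicate 1 was the lowest of all 10, 2 of the other TAC libraries lay inside the sham range and 2 below it. The log2 fold change was -0.12 ± 0.09 (95% interval from -0.31 to 0.07, adjusted p = 0.297 by edgeR). It was -0.05 without the library labelled TAC replicate 1 and -0.02 when libraries were scaled by their totals alone. Gene counts do not separate the full-length Flt1 transcript from the one that encodes the secreted decoy.

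Nrp2 (ENSMUSG00000025969, chromosome 1, 62703285 to 62818695) rose most of the members that passed. It encodes the neuropilin that partners Flt4 and Kdr for Vegfc and serves as a receptor of class 3 semaphorins, and its proximal promoter letters are given above. It gave 72.2, 102, 101, 81.0 and 84.8 CPM in sham replicates 1 to 5 and 154, 175, 179, 169 and 188 CPM in TAC replicates 1 to 5. All TAC libraries lay well above all sham libraries. The mean went from 88.2 ± 13.02 to 173 ± 12.5 CPM (SD, n = 5 each), a 1.96-fold rise (log2 fold change 0.97 ± 0.09, adjusted p = 2.72e-05 by edgeR). The log2 fold change lay between 0.91 and 1.07 over the 16 alternative settings, and each of them called it.

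Nrp1 (ENSMUSG00000025810, chromosome 8, 128358604 to 128503363), the neuropilin that enhances Vegfa signalling through Kdr, rose far less. It gave 117, 139, 136, 121 and 129 CPM in sham and 137, 145, 149, 156 and 157 CPM in TAC. Only TAC replicate 1 fell inside the sham range. The mean went from 128 ± 9.49 to 149 ± 8.43 CPM (SD, n = 5 each; log2 fold change 0.21 ± 0.06, adjusted p = 0.0177 by edgeR). Without sham replicate 4 the call was lost (adjusted p = 0.0516 by edgeR).

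**Figure D2:**
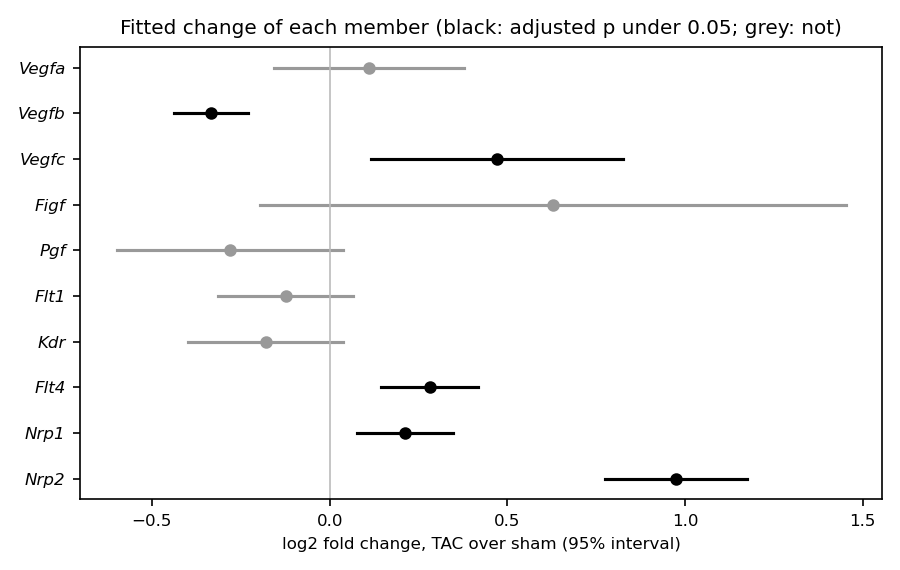
Log2 fold change of each member, TAC over sham (horizontal axis), with its 95% interval as a line, black where the adjusted p by edgeR was under 0.05 and grey where it was not. The interval of Nrp2, from 0.77 to 1.17, lies apart from those of the other receptors, and those of Vegfa, Figf, Pgf, Flt1 and Kdr include 0.

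Levels were compared between genes only per kilobase of merged exons (GENCODE M21). In sham hearts Vegfb was highest at 194 ± 7.72 CPM per kilobase (SD, n = 5), followed by Vegfa at 120 ± 21.6. The receptors Kdr, Flt1 and Nrp1 came next at 30.9 ± 5.50, 16.5 ± 0.844 and 13.1 ± 0.972 CPM per kilobase. Flt4 at 7.65 ± 0.568 and Nrp2 at 7.45 ± 1.099 overlapped in range and could not be ordered, while every other pair of neighbours in the sham order was free of overlap. Pgf at 3.72 ± 0.537, Vegfc at 1.13 ± 0.135 and Figf at 0.625 ± 0.183 CPM per kilobase closed the order.

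In TAC hearts the same scale placed Vegfb at 154 ± 5.02 and Vegfa at 130 ± 20.4 CPM per kilobase, and their ranges, 148 to 161 and 108 to 163, now overlapped. Nrp1, Flt1 and Nrp2 lay together at 15.2 ± 0.862, 15.1 ± 2.14 and 14.6 ± 1.06 CPM per kilobase with overlapping neighbours on this length. Flt4, at 9.30 ± 0.481, lay below Nrp2 without overlap. The ranges of Vegfc and Figf also overlapped in TAC, where the library labelled TAC replicate 1 gave the highest Figf value, 2.11 CPM per kilobase. With the longest transcript in place of the merged exons, Nrp1 took the place above Flt1 in sham (35.2 against 32.3 CPM per kilobase) and Nrp2 stood above Flt4 (13.1 against 10.1), and in TAC Nrp1, Flt1 and Nrp2 no longer lay together (40.8, 29.7 and 25.8 CPM per kilobase, with Kdr at 41.6), so those positions depend on the length used.

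**Figure D3:**
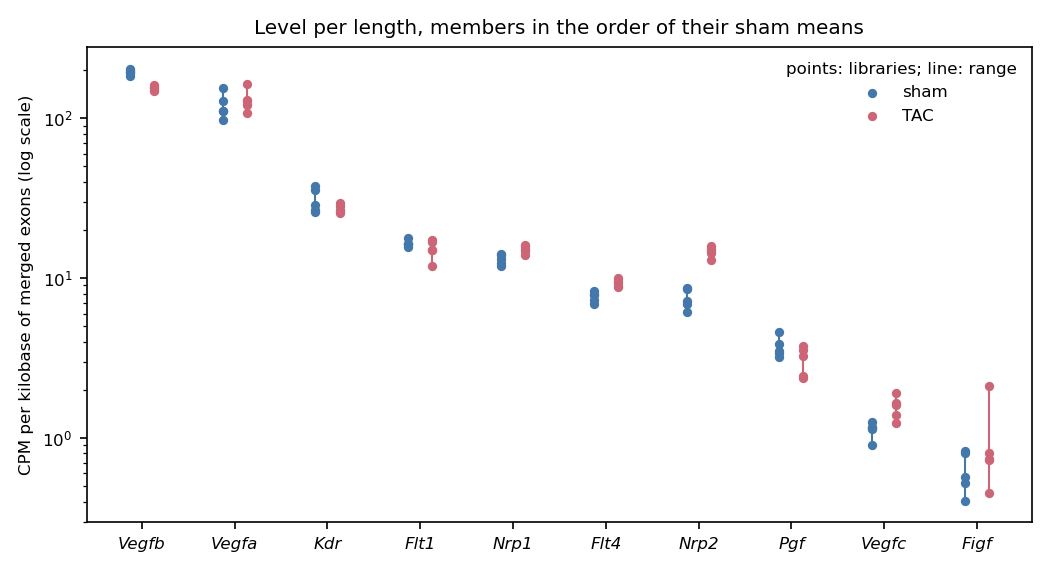
Level of the members in CPM per kilobase of merged exons on a log axis, in the order of their sham means, with points for the 5 libraries of each group and lines for their range. Nrp2 moves from the level of Flt4, 7.45 against 7.65, to that of Flt1 and Nrp1 in TAC, an order that depends on the length used.

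Ratios of members within a library do not depend on how the library is scaled, and 11 were compared by an exact two-sided permutation test over the 252 divisions of the libraries, whose smallest p is 0.00794, with Benjamini-Hochberg adjustment over the 11. The co-receptor pair parted. The log2 ratio of Nrp1 to Nrp2 lay between 0.43 and 0.69 in sham and between -0.28 and -0.12 in TAC (difference -0.77, exact permutation p = 0.00794, adjusted p = 0.0291). Reads of Nrp1 outnumbered those of Nrp2 in all 5 sham libraries, and the reverse held in all 5 TAC libraries. Those reads are not per length, and the merged exons of Nrp2 are the longer (11842 against 9785 bases). Per kilobase Nrp1 and Nrp2 lay together in TAC, at 15.2 ± 0.862 and 14.6 ± 1.06 CPM (SD, n = 5 each). By the longest transcript Nrp1 stayed above Nrp2 in TAC (40.8 against 25.8 CPM per kilobase). The reversal therefore holds for reads only. The difference in log2 ratio lay between -0.80 and -0.73 with each library left out and was called each time.

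Among the ligands, Vegfb and Pgf were lower relative to Vegfa. The mean log2 ratio of Vegfb to Vegfa went from -0.71 ± 0.24 to -1.16 ± 0.19 (SD, n = 5 each; exact permutation p = 0.0159, adjusted p = 0.0349), and that of Pgf to Vegfa from -5.54 ± 0.20 to -5.94 ± 0.19 (exact permutation p = 0.0159, adjusted p = 0.0349). The groups overlapped in both. The Vegfb call was lost without sham replicate 3 or 5 or TAC replicate 2, 3, 4 or 5, and the Pgf call without sham replicate 1, 3 or 5 or TAC replicate 2 or 5. The ratio of Flt1 to Kdr, decoy and signalling receptor, averaged nearly the same in both groups (-0.31 ± 0.22 in sham and -0.28 ± 0.27 in TAC, difference 0.03, exact permutation adjusted p = 0.943), beside a spread within each group several times as wide. The ratio of Vegfa to Kdr differed by 0.28 (exact permutation adjusted p = 0.112), and by 0.36 without the library labelled TAC replicate 1 (exact permutation adjusted p = 0.0249).

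The receptors were also set against the summed endothelial markers of the same library. Of 25 endothelial markers tested, 11 rose, 1, Cd36, fell and 13 were not called (median of the list 0.19 on the log2 scale, beside 0.00 for all tested genes). Cdh5, the cadherin of endothelial junctions, went from 281 ± 20.8 to 410 ± 39.7 CPM (SD, n = 5 each; log2 fold change 0.54 ± 0.07, adjusted p = 0.000179 by edgeR). Icam2, an endothelial adhesion molecule, and Mmrn2, a secreted endothelial matrix protein, had log2 fold changes of 0.60 and 0.54. With TAC replicate 1 left out, 13 of the 25 rose. Fabp4, Cd36 and Eng were the largest parts of the sum in sham, at 397, 396 and 377 CPM. How far their RNA came from endothelium was not tested. The summed level of the list was 2917 to 3158 CPM in sham and 2900 to 3669 CPM in TAC. The groups overlapped only through the library labelled TAC replicate 1, at 2900 CPM. Every other TAC library, at 3225 to 3669 CPM, lay above every sham library.

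Relative to this list of 25, Flt1 was lower and Nrp2 higher. The log2 ratio of Flt1 to the summed markers went from -3.75 ± 0.04 to -4.03 ± 0.14 (SD, n = 5 each), without overlap (difference -0.28, exact permutation adjusted p = 0.0291, lost without sham replicate 3 or 5). That of Nrp2 went from -5.10 ± 0.24 to -4.27 ± 0.07, also without overlap (difference 0.83, exact permutation adjusted p = 0.0291). The Kdr ratio overlapped between the groups and did not pass (difference -0.31, exact permutation adjusted p = 0.0728), though it passed without the library labelled TAC replicate 1 (-0.38) or without sham replicate 4 (-0.37). Flt4 and Nrp1 did not pass (0.13, exact permutation adjusted p = 0.142, and 0.06, exact permutation adjusted p = 0.543).

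The reference matters to these values. A shorter set of 8 endothelial markers (Pecam1, Cdh5, Esam, Tie1, Robo4, Erg, Egfl7 and Icam2) was chosen after the data were seen, and all 8 have log2 fold changes above 0, from 0.17 to 0.60. The markers it omits include Cd36 (-0.46), Aqp1 (-0.15), Vwf (0.00), Ly6c1 (-0.03) and Emcn (0.07). Against the 8, the differences in log2 ratio were -0.51 for Kdr, -0.48 for Flt1, -0.06 for Flt4, -0.13 for Nrp1 and 0.64 for Nrp2. A denominator made of markers with positive fold changes lowers all of these, so they are given as a description with no test. The sign of Nrp1 turned between the references.

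**Figure D4:**
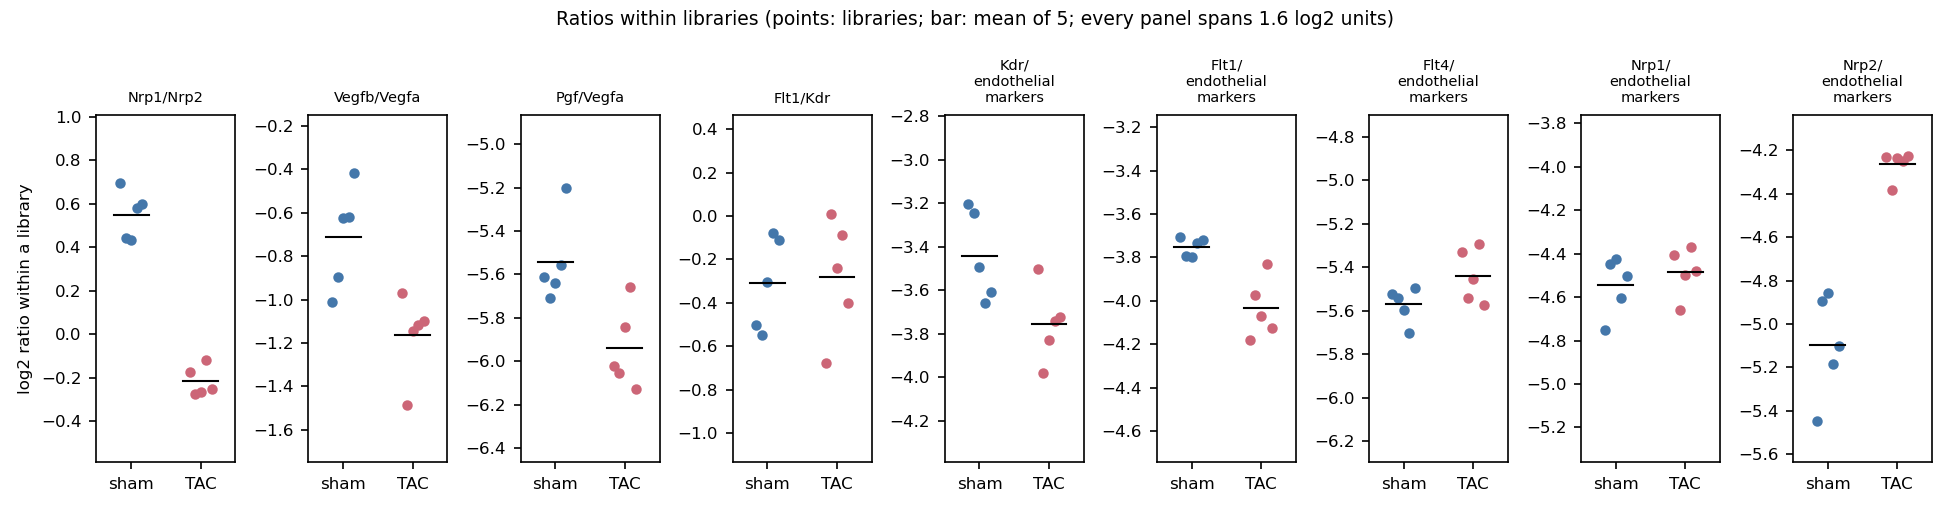
Log2 ratio of 2 members, or of a receptor to the summed 25 endothelial markers, within each library (points, 5 sham and 5 TAC), with the mean of each group as a bar and the same span on every vertical axis. The groups do not overlap for Nrp1 to Nrp2 or for Flt1 and Nrp2 relative to the endothelial markers, and they overlap for Kdr, Flt4 and Nrp1.

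Markers of other cell types that can carry these transcripts were measured in the same libraries. Macrophage markers, 11 of 14 tested higher and none lower, summed to between 275 and 317 CPM in sham and between 436 and 720.5 CPM in TAC. Fcgr1, among those higher, lay at 0.98 CPM in sham and 2.70 CPM in TAC. That is close to the filter on low counts, so its TAC level could have carried it into the test. Fibroblast markers, 9 of 14 higher and 2 lower, summed to between 2608 and 3274 CPM in sham and between 4657 and 9681 CPM in TAC. The highest TAC sums of the macrophage list and of the fibroblast list both came from the library labelled TAC replicate 1. Without it the TAC sums were 436 to 460.5 CPM for macrophage markers and 4657 to 4921 CPM for fibroblast markers. Pericyte and smooth muscle markers, 3 of 12 higher (Cspg4, Notch3 and Pdgfrb) and none lower, summed to between 5302 and 5735 CPM in sham and between 5747 and 7653 CPM in TAC. Most of that sum is Des, which cardiomyocytes also express and which was not called (0.30 on the log2 scale, with an adjusted p of 0.0525 from edgeR), and without it the sum was 1821 to 2251 CPM in sham and 1930 to 2229 CPM in TAC. The median of this list was 0.07 on the log2 scale, and 0.01 with TAC replicate 1 left out. Its highest TAC sum, 7653 CPM, also came from the library labelled TAC replicate 1, with the next at 6563 CPM. The part of these cells in the change of Nrp2 was not tested. Cardiomyocyte markers, 10 of 15 lower and 1, Nppa, higher, moved in the direction of Vegfb, and their part in its change was not tested.

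Lymphatic endothelial markers gave no common direction beside Flt4, Vegfc and Nrp2. Of 7 tested, Itga9 and Foxc2 rose, Prox1 fell and 4 did not pass (median of the list -0.05 on the log2 scale, and 0.09 with TAC replicate 1 left out). Their summed level was 202 to 266 CPM in sham and 277 to 313 CPM in TAC, without overlap, and Itga9 alone went from 110 ± 24.4 to 179 ± 12.3 CPM (SD, n = 5 each). The part of lymphatic endothelium in the change of Flt4 and Nrp2 was not tested. Lyve1, the hyaluronan receptor of lymphatic endothelium, gave a log2 fold change of -0.05, and Mmrn1 and Reln gave -0.32 and -0.31. Pdpn gave 0.50 (adjusted p = 0.0589 by edgeR), and none of these 4 passed. Prox1 (log2 fold change -0.44 ± 0.08, adjusted p = 0.00107 by edgeR), a lymphatic transcription factor, and Itga9 (log2 fold change 0.70 ± 0.13, adjusted p = 0.00138 by edgeR), an integrin, are also expressed outside lymphatics. The Foxc2 call was lost with DESeq2, with no filter on low counts, and without sham replicate 2, 3, 4 or 5 or TAC replicate 1, 2 or 3.

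Genes that act upstream of the ligands and targets of the hypoxia response, taken as 1 list, changed in both directions. Of 18 tested genes of the hypoxia response and of VEGF induction, 2 rose, 6 fell and 10 were not called (median of the list -0.08 on the log2 scale). Egln1, a prolyl hydroxylase that marks hypoxia-inducible factors for destruction, went from 447 ± 18.9 to 308 ± 24.4 CPM (SD, n = 5 each; log2 fold change -0.54 ± 0.06, adjusted p = 6.42e-05 by edgeR). Hif1a, an oxygen-regulated subunit, rose (log2 fold change 0.33 ± 0.07), and Epas1, its paralogue, fell (-0.30, adjusted p = 0.00932 by edgeR). Ppargc1a, a coactivator that can induce Vegfa, and Esrra, its nuclear receptor partner, had log2 fold changes of -0.84 ± 0.14 and -0.43 ± 0.06. Among common targets of the pathway, Pfkfb3, a regulator of glycolysis, rose (0.46, adjusted p = 0.0269 by edgeR) and Egln3, another prolyl hydroxylase, fell (-0.27, adjusted p = 0.00757 by edgeR). Slc2a1, Adm, Ankrd37 and Bnip3 did not pass, with log2 fold changes of 0.21, -0.05, 0.04 and -0.38. When libraries were scaled by their totals alone, 5 of these genes rose and 4 fell, and without sham replicate 1 or 2 only 1 rose.

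Downstream of the receptors, 29 signalling genes were tested, of which 16 rose, 4 fell (2 with library totals) and 9 were not called (median of the list 0.23 on the log2 scale). Dab2, an endocytic adaptor that acts in receptor uptake, and Iqgap1, a scaffold that binds Kdr, had log2 fold changes of 0.93 ± 0.12 and 0.68 ± 0.08 (adjusted p = 0.000142 and 6.06e-05 by edgeR). Pxn, paxillin of focal adhesions, gave 0.36 ± 0.06. Pik3r1, the regulatory subunit of phosphoinositide kinase, fell from 207 ± 22.9 to 125 ± 20.9 CPM (SD, n = 5 each; log2 fold change -0.73 ± 0.11, adjusted p = 0.000343 by edgeR). Nos3, the endothelial nitric oxide synthase, and Ptprb, the endothelial phosphatase that restrains Kdr, rose with log2 fold changes of 0.39 and 0.43 and adjusted p of 0.00745 and 0.00538 by edgeR.

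A list of genes that VEGF can induce in endothelium was also examined. Of 19 tested, 10 rose, none fell and 9 were not called (median of the list 0.51 on the log2 scale). Calls of a rise made up 18.8% of all tested genes and calls of a fall 17%. Whether VEGF had a part in these rises was not tested, and Vegfa did not pass. Esm1, among those that rose, lay at 1.19 CPM in sham and 2.17 CPM in TAC. That is close to the filter on low counts, so its TAC level could have carried it into the test. Apln, a peptide of sprouting endothelium, went from 16.2 ± 2.68 to 41.4 ± 6.83 CPM (SD, n = 5 each; log2 fold change 1.36 ± 0.13, adjusted p = 2.71e-05 by edgeR). Plat, tissue plasminogen activator, Unc5b, a netrin receptor of tip cells, and Rcan1, a calcineurin inhibitor that cardiomyocytes also express, had log2 fold changes of 0.63 ± 0.11, 0.59 ± 0.13 and 1.03 ± 0.21. Of the immediate early genes of this list, Egr3 rose by 0.69 on the log2 scale (adjusted p = 0.0348 with edgeR), and Egr1, Nr4a1, Nr4a2 and Nr4a3 did not pass, with log2 fold changes of 0.03, -0.53, -0.28 and 0.22. Angpt2 did not pass either (-0.06). The count that rose was 6 without sham replicate 3, without TAC replicate 1 or without TAC replicate 3, and 5 without sham replicate 4. Without TAC replicate 4, 1 gene of this list fell.

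The other ligands and partners of the neuropilins changed in part. Of 12 tested semaphorins and plexins, 4 rose, 1 fell and 7 were not called (median of the list 0.18 on the log2 scale). Plxnd1, the endothelial plexin, went from 315 ± 43.7 to 507 ± 36.7 CPM (SD, n = 5 each; log2 fold change 0.69 ± 0.09, adjusted p = 0.000131 by edgeR). Sema3c and Sema3d, secreted ligands of neuropilins, rose from low levels with log2 fold changes of 0.49 ± 0.14 and 0.89 ± 0.24. Plxnb1, a receptor of a different semaphorin class, fell (-0.68 ± 0.15, adjusted p = 0.00403 by edgeR), and Sema3f, a ligand that binds Nrp2, did not pass (0.47, adjusted p = 0.0777 by edgeR).

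Genes that process, store or oppose VEGF included some of the larger changes. Of 23 tested, 8 rose, 2 fell and 13 were not called (median of the list 0.18 on the log2 scale). Only 1 fell without sham replicate 5, without TAC replicate 3, 4 or 5, or when totals alone scaled the libraries. The median was 0.30 with TAC replicate 1 left out. These counts and medians include Chm (log2 fold change 0.40, adjusted p = 0.0463 by edgeR), 1 of the 8 that rose. That symbol names a Rab escort protein with no known part in VEGF handling, so it does not belong in the list. Serpinf1, which encodes the anti-angiogenic pigment epithelium-derived factor, went from 26.3 ± 5.13 to 68.7 ± 15.1 CPM, and Vash1, vasohibin, from 23.6 ± 3.55 to 52.3 ± 3.68 CPM (SD, n = 5 each; log2 fold changes 1.39 ± 0.16 and 1.15 ± 0.10, adjusted p = 5.64e-05 and 1.54e-05 by edgeR). Hspg2, perlecan, which binds VEGF in basement membranes, and Spred1, an inhibitor of the kinase cascade, had log2 fold changes of 0.54 ± 0.07 and 0.65 ± 0.12. Adamts3, a protease that activates Vegfc, fell (log2 fold change -0.90, adjusted p = 0.00341 by edgeR), while Ccbe1, its cofactor, did not pass (-0.47, adjusted p = 0.134 by edgeR).

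Of 24 tested genes of other angiogenic pathways, 9 rose, 2 fell and 13 were not called (median of the list 0.18 on the log2 scale). Notch4, an endothelial Notch receptor, Fgfr1, a fibroblast growth factor receptor, and Pdgfrb, the pericyte receptor, had log2 fold changes of 0.44 ± 0.08, 0.42 ± 0.08 and 0.26 ± 0.05. Fgf1, an acidic fibroblast growth factor, fell from 23.9 ± 2.96 to 16.9 ± 0.62 CPM (SD, n = 5 each; log2 fold change -0.50 ± 0.09, adjusted p = 0.000887 by edgeR). Angpt1, the ligand that stabilises vessels through Tek, also fell (-0.80, adjusted p = 0.0126 by edgeR), and Tek did not pass (0.11).

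**Figure D5:**
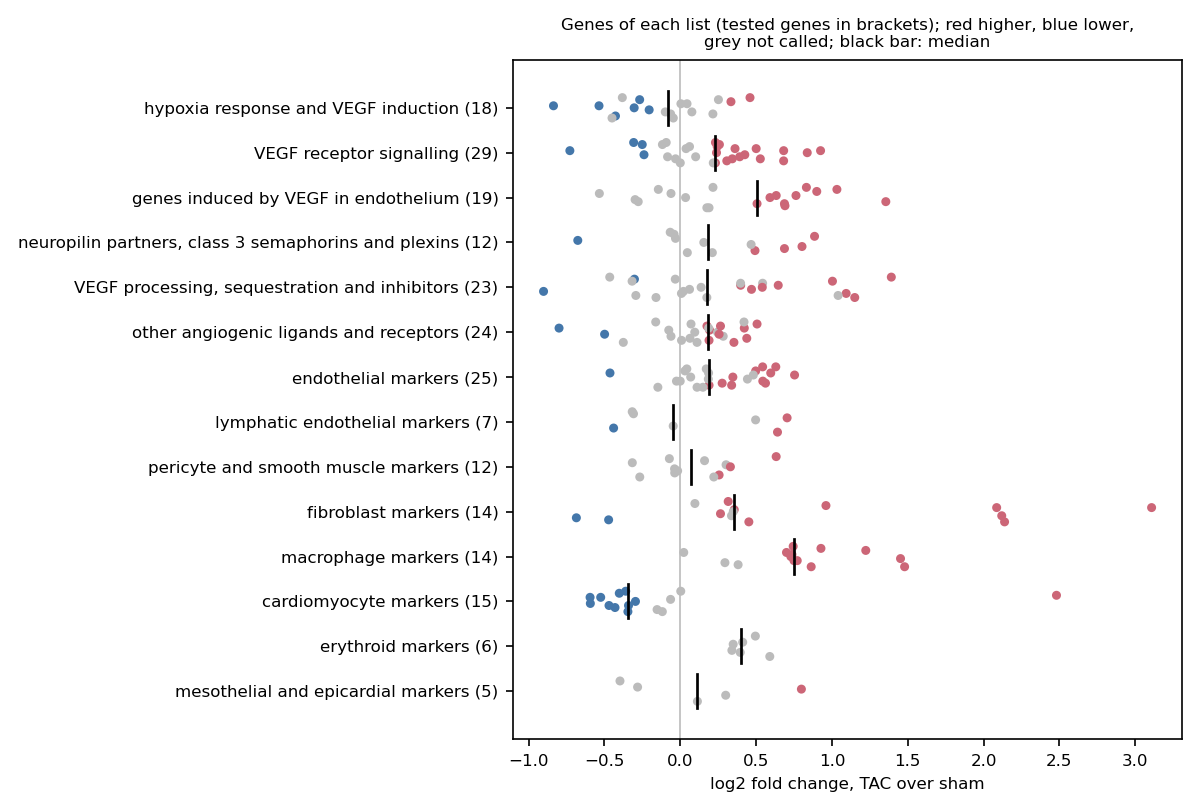
Log2 fold change, TAC over sham (horizontal axis), of the tested genes of each list with at least 5 tested genes, red where higher, blue where lower and grey where not called by edgeR, with a black bar at the median of the list. The genes induced by VEGF in endothelium have their median at 0.51 and none is blue, and the hypoxia list has its median at -0.08.

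For 4 members the genes of most similar course were sought among 8412 others, by the root mean square difference in log2 CPM over the 10 libraries after each gene was set to its own mean. Those nearest to Nrp1 were Ets2, Notch1 and Birc6, at 0.051, 0.058 and 0.059. Those nearest to Vegfa were Rrp15, Fbxo30 and Ero1l, at 0.089, 0.106 and 0.107. For Kdr they were Mtdh, Psmg2 and Rnf220 (0.103, 0.104 and 0.107) and for Pgf Pstpip2, Murc and B4galt4 (0.109, 0.112 and 0.114). These distances describe the libraries and carry no test.

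The remaining marker lists had few tested genes. Of 14 lymphocyte and neutrophil markers, the 2 with enough counts to be tested were Cd4 and Csf3r (log2 fold changes 1.11 and 0.90). Cd4 lay at 1.102 CPM in sham and 2.39 CPM in TAC, so it passed the filter through the TAC group, and the summed level of all 14 overlapped between sham (5.25 to 11.9 CPM) and TAC (7.23 to 11.6 CPM). Of 5 mesothelial and epicardial markers 1, Wt1, rose (log2 fold change 0.80), and none of 6 erythroid or 3 nerve and glia markers was called.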

How the data were processed

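Polyadenylated RNA of the ventricular apex gave unstranded single-end libraries, per the labels' protocols. The deposited table holds raw counts of reads per Ensembl gene made by the authors, not normalized. Per the submitters' processing notes, the sham libraries list Bowtie2, TopHat2 2.0.10, HTSeq and mm10, and the TAC libraries Bowtie, TopHat 1.3.0, HTSeq, mm9 and mm10. The sources used here do not give the counter's settings or its annotation. No gene of the table shares exon bases with a member in GENCODE M21. A row of column totals was left out. No library was a repeat of another (chi-square per gene 2.67 to 24.9 over 20 pairs). The design text counts mice, and no animal identifiers are given, so p-values measure the spread between these samples.

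All genes were fitted with edgeR 4.0.16 in R 4.3.3 (quasi-likelihood F test, TMM, filterByExpr with a minimum count of 10, group as the only term) and adjusted by Benjamini-Hochberg over 12001 genes at 0.05. The method was tested on simulated data, where the share of false calls ran above the nominal rate. Far fewer genes differed in the simulation than were called here, so that share does not carry over to these data. Calls near the threshold, such as those of Vegfc and Foxc2, need care. Log2 CPM used a prior count of 2. Alternatives were RLE size factors, library totals, no filter, DESeq2 1.42.0, limma-voom 3.58.1, replicate number as a block, and leaving out each library. The members and lists were chosen with earlier results of these data known. Besides the members, up to 4 called genes per pathway list and 3 per marker list were named by smallest adjusted p, with the 3 genes nearest to each of 4 members; other genes were named after their values were seen. Promoter sequences are from RefSeq (GRCm38.p6), in which all 10 members matched, and lengths from GENCODE M21, matched by Ensembl ID.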

Additional observations from a re-analysis of the deposited data

Results flagged for a closer look

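The Figf level of the library labelled TAC replicate 1, 5.08 CPM, stood apart from the other 4 TAC libraries at 1.09 to 1.93 CPM, with a gap of 0.79 of the range of the group. The log2 ratio of Nrp2 to the summed endothelial markers in TAC replicate 2, -4.38, stood below the other TAC libraries at -4.25 to -4.23, a gap of 0.853 of a narrow range. These were 2 of 42 groups of 5 libraries examined, and chance alone gives about 1 in 20.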

How the results depend on the processing

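The counts of members that rose (3 or 4) and fell (1) stayed within 1.5 times under the alternatives run, and no member changed sign. Scaling by library totals put the median of all genes at 0.11 rather than 0.00 on the log2 scale and gave 3252 rises and 1163 falls, where TMM gave 2252 and 2040. Over 1056 pairs of a named gene and a setting, 30 calls were lost, 8 were gained and none reversed. Without the library labelled TAC replicate 1, the receptor signalling list had 14 rises and 3 falls in place of 16 and 4. The semaphorin and plexin list then had 3 rises in place of 4, and the VEGF processing list 7 in place of 8. Macrophage markers had 10 rises in place of 11 and fibroblast markers 8 in place of 9. Pericyte and smooth muscle markers had 4 rises in place of 3. Replicate numbers did not pair the libraries: same-numbered libraries correlated between -0.092 and 0.222, over 0.1 in 1 of 5. With the replicate block, 3 members and 2113 genes were higher and 1 and 1924 lower, Vegfc lost its call (adjusted p = 0.0777 by edgeR), and 6 genes induced by VEGF rose in place of 10 and 1 fell. The paired test of ratios cannot go below an exact p of 0.0625, so no ratio could pass under the block. Pgf/Vegfa (-0.40), Nrp1/Nrp2 (-0.77), Flt1/endothelial markers (-0.28) and Nrp2/endothelial markers (0.83) sat at that floor. Vegfb/Vegfa (-0.45) lay above it, with an exact p of 0.125 by the paired test. Its replicate 1 went the other way (-1.01 in sham and -0.97 in TAC). With 8 core endothelial markers, an alternative added after seeing the data, the Kdr ratio was -0.51 and the Nrp1 ratio changed sign (-0.13), but all 8 markers have positive fold changes and the set supports no call. With each library left out, the difference lay between -0.47 and -0.31 for Pgf/Vegfa, between -0.52 and -0.37 for Vegfb/Vegfa, between -0.34 and -0.25 for Flt1/endothelial markers, between -0.38 and -0.25 for Kdr/endothelial markers and between 0.17 and 0.36 for Vegfa/Kdr. The cause of these changes was not tested. The few counts of Figf and Vegfc, 8 to 44 per library, limit what can be seen for them.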
